A study of Homo sapiens with 9 samples.

Results

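The transcripts described here code for the proteins that decide whether a cell leaves G1 and starts DNA synthesis. They are the 10 genes CDKN1A, CDKN1B, CCND1, CCND3, CCNE2, CDK2, CDK4, CDK6, RB1 and E2F1, chosen by gene name for their function, out of 27615 genes listed for any library. These genes and the lists used below were chosen with earlier results of these data known. The shares of them that were called are therefore a description. All 10 are protein-coding genes, 9 of them are listed for all 9 libraries, and CCNE2 is listed for 8. RNA came from MDA-MB-231, an established triple-negative breast cancer line, although a label of the samples also calls the material tissue. The cells received DMSO as the vehicle, rimonabant, a compound that blocks the cannabinoid receptor CB1, or TXX-1-10, a molecule derived from rimonabant, with 3 libraries per treatment. Doses and durations of the sequenced treatments are not given in the sources used here, so the compounds are set side by side without a known match of dose. The labels do not say whether libraries of a treatment came from separate cultures, and p-values therefore measure the spread between these libraries only.

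In G1, growth signals raise D-type cyclins, which bind CDK4 and CDK6 and phosphorylate RB1. Phosphorylated RB1 releases E2F1 and related factors, which switch on genes for DNA synthesis as well as the E-type cyclins that activate CDK2, so that the passage into S phase becomes self-sustaining. The inhibitors p21 (CDKN1A) and p27 (CDKN1B) block CDK2 complexes, and p21 is known to rise in several kinds of stress. Loss of this brake is common in breast cancer, and CDK4 and CDK6 are themselves drug targets in that disease.

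TXX-1-10 raised the p21 transcript 4.09-fold and lowered the transcripts of cyclin D1, cyclin E2 and E2F1 to 0.479, 0.365 and 0.406 of their vehicle levels. Rimonabant raised the p21 transcript 2.80-fold and lowered cyclin D1 to 0.751, but E2F1 and cyclin E2 were higher than in vehicle-treated cells, at 1.49 and 1.64 times its level. CDK4 did not pass the test in any comparison of the 9 libraries, although small differences of TXX-1-10 from both other treatments passed once a trend with gene length was removed. CDK2 and RB1 were lower under TXX-1-10, at 0.572 and 0.586 of the vehicle level, and did not pass the test under rimonabant.

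The promoters of CDKN1A and E2F1 are shown because, of the 7 genes with a window in the sequence table, these moved farthest in opposite directions under TXX-1-10, and that of CDKN1B because it is the other inhibitor and changed little. Each sequence is the 250 bases directly before the RefSeq transcription start (GRCh38.p14), written 5′ to 3′ on the gene's own strand. Capitals mark the motifs found on either strand, namely the GC box GGGCGG, the box named CCAAT and the E2F motif (TTTCGCGC, TTTGGCGC or TTTCCCGC), where adjoining GC boxes can overlap.
CDKN1A (chr6:36678464-36678713, plus strand): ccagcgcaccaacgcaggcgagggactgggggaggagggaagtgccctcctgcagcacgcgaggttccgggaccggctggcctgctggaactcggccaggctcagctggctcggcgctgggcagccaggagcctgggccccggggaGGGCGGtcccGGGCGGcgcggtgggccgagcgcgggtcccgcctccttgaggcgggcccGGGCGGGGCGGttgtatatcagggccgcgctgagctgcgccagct
CDKN1B (chr12:12717118-12717367, plus strand): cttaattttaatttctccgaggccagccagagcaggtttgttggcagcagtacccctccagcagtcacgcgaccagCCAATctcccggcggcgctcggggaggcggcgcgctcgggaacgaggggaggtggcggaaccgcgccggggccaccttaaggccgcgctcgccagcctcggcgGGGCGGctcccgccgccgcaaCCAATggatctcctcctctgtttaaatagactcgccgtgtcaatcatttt
E2F1 (chr20:33686386-33686635, minus strand): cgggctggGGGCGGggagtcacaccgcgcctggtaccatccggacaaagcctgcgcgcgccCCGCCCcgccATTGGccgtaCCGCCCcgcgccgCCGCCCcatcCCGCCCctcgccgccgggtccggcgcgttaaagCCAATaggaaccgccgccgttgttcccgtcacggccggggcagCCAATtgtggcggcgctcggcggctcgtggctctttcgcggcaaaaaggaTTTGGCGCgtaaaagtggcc

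The CDKN1A window held 4 GC boxes and the E2F1 window 5, and that of CDKN1B held 1. CCAAT was found 3 times in the E2F1 window, 2 times in that of CDKN1B and not in that of CDKN1A. An E2F motif was found only in the E2F1 window, where it begins 20 bases before the start, among the 10 windows that the table holds for 7 of the genes, all but CCND1, CDK2 and CCNE2. The RB1 window (chromosome 13, 48476200 to 48476449) lies at an internal start far inside the gene, so these letters do not describe the promoter at its 5′ end. The windows of CDKN1A, CDKN1B, CDK4 and CCND3 also lie within the listed span of their gene, as does the CDK6 window from 92833960 to 92834209. Of the CCND3 windows, those starting at 41941809 and 41939206 lie far from its 5′ end at 42050357. Over all 35116 windows of the table, 2.32% hold an E2F motif, 42.6% a GC box and 32.0% CCAAT on either strand. None of the 10 windows held the TATA box as TATAAA (10.7% of all windows), the cyclic AMP element TGACGTCA (1.65%), the AP-1 motif TGACTCA (4.2%) and the cell cycle genes homology region TTTGAA (13.3%). A match of letters is a description and not evidence of binding.

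Library totals behind the FPKM values were 17078370 to 17245379 for vehicle, 17477838 to 18813662 for rimonabant and 18394759 to 19277808 for TXX-1-10. They are not sums of the listed counts. In vehicle replicates 1 and 3 the listed counts added up to 17492638 and 17383157, above totals of 17078370 and 17221591. In vehicle replicate 2 and all libraries of both compounds the listed counts added up to less than the total. An example is TXX-1-10 replicate 2, with 16836181 against 18394759. Scaling by TMM, given below, used the listed counts and not these totals. FPKM is the count scaled to gene length and to the library total, so it allows levels of different genes to be compared. The lists end at different points, so a gene missing from a list was not taken as 0, and 4236 genes were tested in all 9 libraries. The 9369 genes of a second fit lack rimonabant replicate 1 and include CCNE2. Transcripts of the mitochondrial genome took 6.25% to 6.51% of the library total under vehicle, 6.05% to 6.86% under rimonabant and 3.05% to 3.50% under TXX-1-10. Their part in the results was not tested beyond a fit with their counts taken out of the library total. Of 8 genes taken to check the cell line, VIM had an FPKM of 224 to 329, CD44 of 27.4 to 48.2 and EGFR of 29.9 to 48.0. ERBB2, the gene of HER2, was read at 6.996 to 9.523 and the epithelial marker EPCAM at 4.47 to 5.37. The hormone receptors ESR1 and PGR had at most 0.0314 and 0.0459, and CDH1 had 0 counts, in the 4 libraries that list each. Of 12 markers of fibroblasts, leukocytes and endothelium, 11 are listed somewhere. Summed over the markers that a library lists, their FPKM was at most 1.52 for vehicle, 1.12 for rimonabant and 1.09 for TXX-1-10. Vehicle replicate 2 and rimonabant replicate 1 list none of them and the other libraries 1 to 11. These sums are therefore incomplete and cannot be compared between libraries. Markers at 0 in a library that lists them were COL1A2, COL3A1, LUM and CDH5.

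Rimonabant replicate 1 and TXX-1-10 replicate 3 stood apart from the other replicates of their treatment, in that longer genes had fewer counts (Spearman rho with length across genes of -0.694 and -0.692). CDK6, with 12260 bases of exon the longest of the genes here, lay 0.38 and 0.36 lower on the log2 scale in these libraries than in the other replicates. E2F1, the shortest with 2503 bases, lay 0.20 and 0.29 higher. CCND3 lay 0.17 higher in both although its length is close to the middle of all genes.

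**Figure D1:**
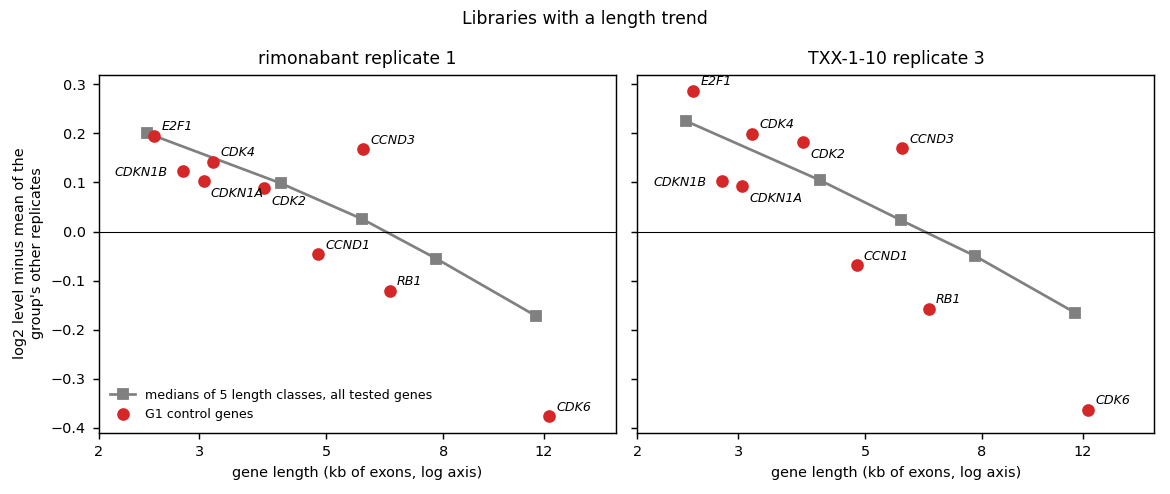
Log2 level in rimonabant replicate 1 (left) and TXX-1-10 replicate 3 (right), minus the mean of the other replicates of the same treatment, against exonic gene length in kilobases on a log axis. Grey squares are medians of 5 length classes of all tested genes and red points are the 9 G1 control genes in the fit; CDK6 is the longest and lowest at -0.38 and -0.36.

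Treatments were compared by the quasi-likelihood test of edgeR on the counts, with Benjamini-Hochberg adjustment over all genes of the fit. A gene was called changed when it differed at least 2-fold (1 on the log2 scale) with an adjusted p under 0.05. Compared with the vehicle, TXX-1-10 changed 3 of the 9 genes in the 9-library fit, with CDKN1A higher and CCND1 and E2F1 lower, where 11.8% of all tested genes were changed. By adjusted p alone 8 of 9 differed, where 74.4% of all genes did as well. Rimonabant changed 1 of 9, CDKN1A, against 1.13% of all genes, and 5 of 9 differed by adjusted p alone against 48.9%. Between the compounds 1 of 9, E2F1, was changed against 5.93%, and 6 of 9 differed by adjusted p alone against 64.5%. Both comparisons with the vehicle use the same vehicle libraries. The median log2 fold change of all tested genes was -0.09 for TXX-1-10 and -0.02 for rimonabant, and became 0.00 and -0.01 with TMM scaling. In bulk RNA, fewer cells that express a gene and less RNA per cell cannot be told apart.

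**Figure D2:**
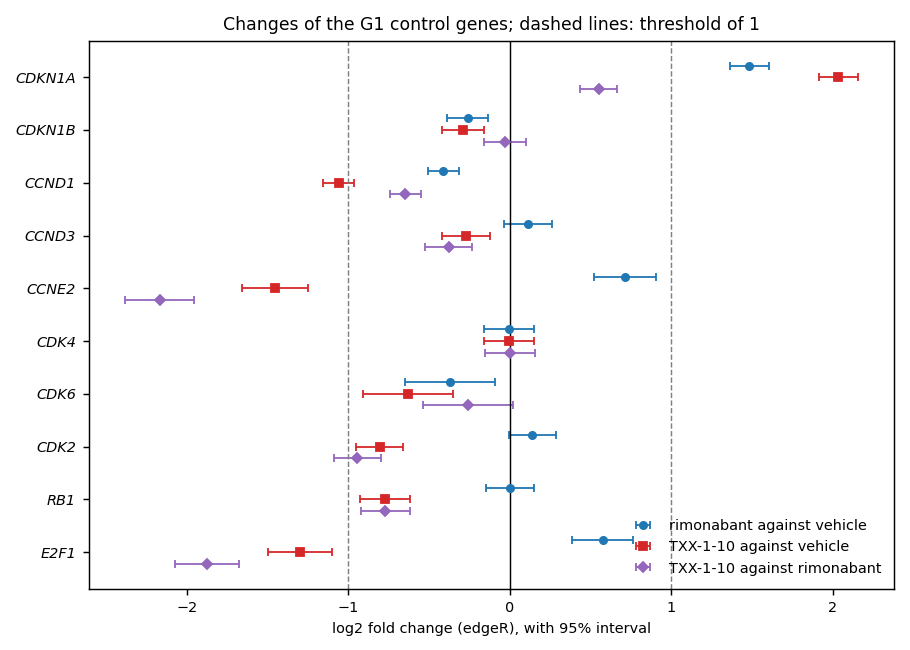
Log2 fold changes of the 10 genes from edgeR, with 95% intervals, for rimonabant against vehicle (circles), TXX-1-10 against vehicle (squares) and TXX-1-10 against rimonabant (diamonds). Dashed lines mark the threshold of 1; E2F1 and CCNE2 lie right of 0 under rimonabant and left of -1 under TXX-1-10, while all 3 intervals of CDK4 include 0.

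CDKN1A (ENSG00000124762, chromosome 6, 36676460 to 36687339) encodes p21, which binds and inhibits CDK2 complexes. Its FPKM was 30.0, 30.0 and 30.4 in the vehicle libraries, 88.2, 80.5 and 83.9 with rimonabant, and 125, 117 and 129 with TXX-1-10. The 3 treatments did not overlap, and the vehicle libraries were nearly equal to each other. This was a rise by 2.03 on the log2 scale with TXX-1-10 (standard error, SE, 0.05; edgeR adjusted p = 6.63e-10) and by 1.48 with rimonabant (SE 0.05, adjusted p = 7.49e-08). TXX-1-10 exceeded rimonabant by 0.55 (95% interval 0.43 to 0.67, edgeR adjusted p = 8.05e-06). Over the alternatives the change under TXX-1-10 ranged from 1.98 to 2.16, and that under rimonabant from 1.45 to 1.51. The gene that overlaps CDKN1A on the other strand, DINOL, shares 951 bases of its span, and use of the strand in counting is not given in the sources used here.

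CDKN1B (ENSG00000111276, chromosome 12, 12715058 to 12722371) encodes p27, the other inhibitor in the list. Its FPKM was 28.2, 26.6 and 26.7 with vehicle, 24.0, 21.6 and 22.4 with rimonabant, and 21.9, 21.4 and 23.3 with TXX-1-10. Both compounds lay below all vehicle libraries and overlapped each other. The log2 fold change was -0.29 under TXX-1-10 (edgeR adjusted p = 0.001) and -0.26 under rimonabant (adjusted p = 0.00407), and neither reached the fold threshold in any alternative. Over the 24 alternatives it ranged from -0.34 to -0.15 under TXX-1-10, and was -0.19 with TMM and with DESeq2. Between the compounds it was -0.03 (95% interval -0.16 to 0.10, edgeR adjusted p = 0.672). The ratio of CDKN1A to CDKN1B FPKM was 1.11 ± 0.0417 (SD, n = 3) under vehicle, 3.72 ± 0.0333 under rimonabant and 5.55 ± 0.111 under TXX-1-10.

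**Figure D3:**
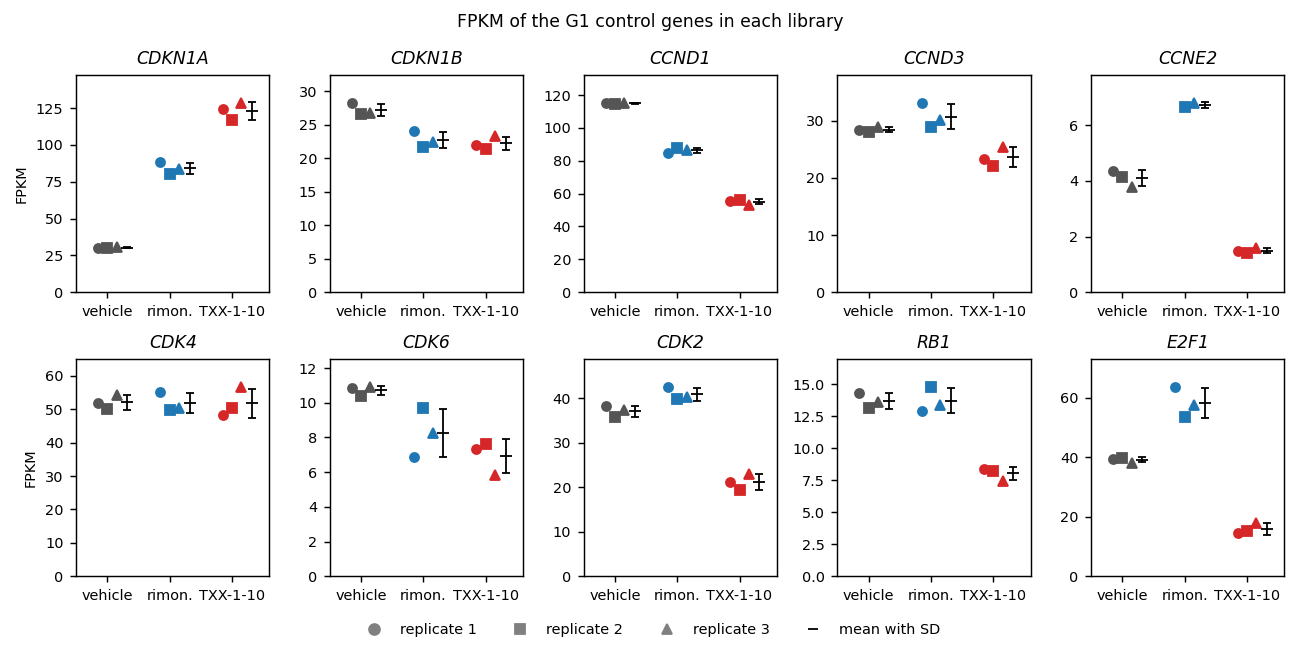
FPKM (linear axes from 0) of the 10 genes in each library of the vehicle, rimonabant (rimon.) and TXX-1-10 groups, with the replicate shown by the marker and the mean with SD in black. CDKN1A rises from about 30.1 to 123 while CCND1, CCNE2, CDK2, RB1 and E2F1 are lowest under TXX-1-10; CCNE2 has no point for rimonabant replicate 1, whose list does not hold it.

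CCND1 (ENSG00000110092, chromosome 11, 69641087 to 69654474) encodes cyclin D1, an activator of CDK4 and CDK6, and was the most abundant of the 10 transcripts in vehicle-treated cells. Its FPKM was 115, 114 and 115 with vehicle, 84.4, 87.8 and 86.7 with rimonabant, and 55.5, 56.3 and 53.3 with TXX-1-10. The treatments did not overlap, and the order was vehicle, then rimonabant, then TXX-1-10. With TXX-1-10 edgeR gave a log2 fold change of -1.06 (SE 0.04, adjusted p = 1.09e-08), just past the fold threshold, and under rimonabant -0.41 (adjusted p = 4.91e-05). TXX-1-10 was lower than rimonabant by 0.65 on the log2 scale (-0.65, 95% interval -0.75 to -0.55, edgeR adjusted p = 7.23e-07). Of 24 alternatives, 4 put the change under TXX-1-10 short of the fold threshold, at -0.96 with TMM and with DESeq2, and at -0.97 with the length trend removed, with or without the replicate block. LTO1 overlaps the CCND1 span on the other strand by 1399 bases.

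CCND3 (ENSG00000112576, chromosome 6, 41934933 to 42050357), which encodes cyclin D3 with the same partners, changed less. Its FPKM was 28.35, 28.05 and 28.98 with vehicle, 33.1, 28.9 and 30.1 with rimonabant, and 23.3, 22.0 and 25.5 with TXX-1-10. Rimonabant overlapped the vehicle and TXX-1-10 lay below both. On the log2 scale it differed from the vehicle by -0.27 under TXX-1-10 (edgeR adjusted p = 0.00394) and 0.11 under rimonabant (95% interval -0.04 to 0.26, adjusted p = 0.196), and -0.38 between the compounds (adjusted p = 0.000589). Over the 24 alternatives the change under TXX-1-10 ranged from -0.33 to -0.17, and was -0.17 with TMM and with DESeq2. Added together, CCND1 and CCND3 had an FPKM of 143 ± 0.770 (SD, n = 3) under vehicle, 117 ± 0.510 under rimonabant and 78.7 ± 0.262 under TXX-1-10. CCND1 made up 80.1%, 73.8% and 70.0% of this sum in the same order.

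The summed FPKM of CDKN1A and CDKN1B, divided by that of CCND1 and CCND3, was 0.400 ± 0.00486 (SD, n = 3) under vehicle, 0.913 ± 0.0395 under rimonabant and 1.85 ± 0.0826 under TXX-1-10. CCND2, a further D-type cyclin with a mean FPKM of 2.83 under vehicle and 9.14 under TXX-1-10, is not in this ratio. The highest values under the compounds, 0.954 and 1.93, were in the libraries with the length trend. The ranges of the treatments did not overlap. These are ratios of transcript levels and no test was made on them.

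**Figure D4:**
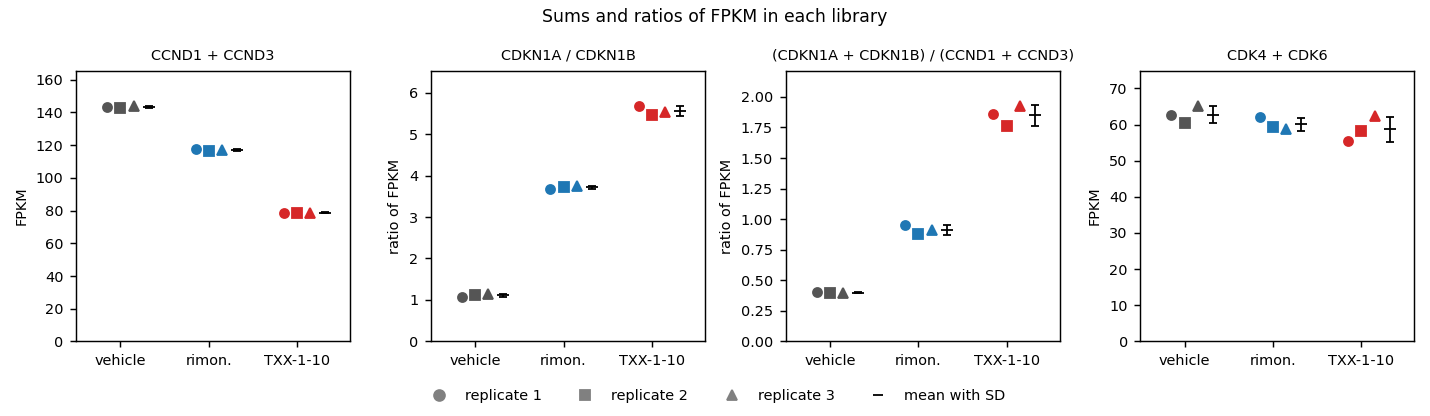
Sums and ratios of FPKM in each library (linear axes from 0), with the mean and SD in black. CCND1 + CCND3 falls from 143 under vehicle to 117 and 78.7, and the ratio of CDKN1A to CDKN1B rises from 1.11 to 3.72 and 5.55. The ratio of CDKN1A + CDKN1B to CCND1 + CCND3 rises from 0.400 to 0.913 and 1.85, and CDK4 + CDK6 overlaps between the treatments.

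CCNE2 (ENSG00000175305, chromosome 8, 94879770 to 94896678) encodes cyclin E2, an activator of CDK2 and itself a product of E2F activity. It was the least abundant of the 10 transcripts in each treatment, with 115 to 554 counts in a library. The protein-coding genes INTS8 and NDUFAF6 overlap its span on the other strand by 1977 and 912 bases. Its value is uncertain to the extent that their reads were counted with it. Its FPKM was 4.35, 4.15 and 3.78 under vehicle, 6.64 and 6.80 in the 2 rimonabant libraries that list it, and 1.46, 1.42 and 1.59 with TXX-1-10. The treatments did not overlap, with rimonabant above and TXX-1-10 below the vehicle. In the 8-library fit the log2 fold change by edgeR was -1.46 with TXX-1-10 (SE 0.09, adjusted p = 3.01e-08) and 0.71 under rimonabant (SE 0.09, adjusted p = 5.98e-05). The compounds differed by -2.17 (95% interval -2.38 to -1.96, edgeR adjusted p = 4.33e-09), the widest gap between them among the 10 genes by edgeR. With limma on log2(FPKM + 1) the gap of E2F1 was wider, at -1.81 against -1.63 for CCNE2. With CCNE2 included, TXX-1-10 changed 4 of 10 genes against the vehicle, rimonabant changed 1, and 2 were changed between the compounds, where 12.7%, 1.49% and 6.41% of all genes of the 8-library fit were changed.

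Among the kinases, CDK2 (ENSG00000123374, chromosome 12, 55966769 to 55972784), the partner of cyclin E, had an FPKM of 38.2, 35.8 and 37.2 with vehicle, 42.5, 39.8 and 40.2 with rimonabant, and 21.3, 19.3 and 23.0 with TXX-1-10. All TXX-1-10 libraries lay below all others, and the rimonabant libraries lay slightly above the vehicle. By edgeR, TXX-1-10 differed by -0.81 on the log2 scale from the vehicle (SE 0.07, adjusted p = 1.43e-06) and by -0.95 from rimonabant (adjusted p = 8.45e-07). Under rimonabant it was 0.14 (95% interval 0.00 to 0.28, edgeR adjusted p = 0.0971). This value passed in 6 of 24 alternatives, among them the fit without TXX-1-10 replicate 3 (0.14, adjusted p = 0.0428) and the fit without both libraries with a length trend (0.11, adjusted p = 0.0358). The whole span of CDK2 lies within that of PMEL on the other strand, so its value is uncertain to the extent that reads of PMEL were counted with it.

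CDK4 (ENSG00000135446, chromosome 12, 57747727 to 57756013), a partner of the D-type cyclins, had an FPKM of 51.8, 50.0 and 54.2 with vehicle, 55.3, 49.7 and 50.4 with rimonabant, and 48.2, 50.5 and 56.6 with TXX-1-10. The 3 treatments overlapped. The 95% interval of the log2 fold change ran from -0.16 to 0.15 under TXX-1-10 (edgeR adjusted p = 0.939), from -0.16 to 0.15 under rimonabant (adjusted p = 0.958) and from -0.15 to 0.15 between the compounds (adjusted p = 0.99). With the length trend removed, the changes under TXX-1-10 were 0.11 against the vehicle (adjusted p = 0.0366) and 0.13 against rimonabant (adjusted p = 0.0169). TSPAN31 and MARCH9 overlap the CDK4 span on the other strand by 2485 and 916 bases.

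CDK6 (ENSG00000105810, chromosome 7, 92604921 to 92836594), the other kinase bound by D-type cyclins, had an FPKM of 10.8, 10.4 and 10.9 with vehicle, 6.89, 9.67 and 8.28 with rimonabant, and 7.33, 7.62 and 5.81 with TXX-1-10. The lowest value under each compound was in the library with the length trend. Against the vehicle, edgeR gave a log2 fold change of -0.63 for TXX-1-10 (SE 0.12, adjusted p = 0.00101) and of -0.37 for rimonabant (SE 0.12, adjusted p = 0.0307). Without both of those libraries they were -0.52 (adjusted p = 5.50e-09) and -0.26 (adjusted p = 0.000203). The rimonabant call was lost without rimonabant replicate 1 (-0.26, adjusted p = 0.0706), without rimonabant replicate 3 (-0.37, adjusted p = 0.0781), in the 8-library fit (adjusted p = 0.0562) and without any single vehicle library (-0.39 to -0.36, adjusted p 0.0615 to 0.0868). Between the compounds the difference was -0.26 (95% interval -0.54 to 0.02, edgeR adjusted p = 0.0935), and it depended on single libraries. It was -0.38 without rimonabant replicate 1 (adjusted p = 0.0110), -0.13 without rimonabant replicate 2 (adjusted p = 0.342) and -0.15 without TXX-1-10 replicate 3 (adjusted p = 0.249). Without both libraries with a length trend it was -0.26 (adjusted p = 0.000353). The sum of CDK4 and CDK6 FPKM was 62.7 ± 2.38 (SD, n = 3) under vehicle, 60.1 ± 1.83 under rimonabant and 58.7 ± 3.51 under TXX-1-10, and these ranges overlapped.

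RB1 (ENSG00000139687, chromosome 13, 48303726 to 48599436) encodes the pocket protein that holds E2F factors in check. Its FPKM was 14.3, 13.1 and 13.6 with vehicle, 12.9, 14.8 and 13.4 with rimonabant, and 8.37, 8.25 and 7.45 with TXX-1-10. Rimonabant overlapped the vehicle, and all TXX-1-10 libraries lay below both. TXX-1-10 differed by -0.77 on the log2 scale from the vehicle (SE 0.07, edgeR adjusted p = 3.19e-06) and by -0.77 from rimonabant (adjusted p = 5.72e-06). Under rimonabant the 95% interval was -0.15 to 0.15 (edgeR adjusted p = 1.0). LPAR6 and RCBTB2 overlap the RB1 span on the other strand.

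E2F1 (ENSG00000101412, chromosome 20, 33675683 to 33686404) encodes the transcription factor that RB1 restrains. Its FPKM was 39.3, 39.8 and 38.2 with vehicle, 63.5, 53.5 and 57.6 with rimonabant, and 14.5, 15.1 and 18.0 with TXX-1-10. The treatments did not overlap, with rimonabant highest and TXX-1-10 lowest. The edgeR log2 fold change was -1.30 for TXX-1-10 (SE 0.09, adjusted p = 4.16e-07) and 0.57 for rimonabant (SE 0.08, adjusted p = 0.000415), and the compounds differed by -1.87 (95% interval -2.07 to -1.68, adjusted p = 6.48e-08). The highest value under each compound was in the library with the length trend. Without both of those libraries the changes were -1.40, 0.51 and -1.91 in the same order. Hence E2F1 and CCNE2 were the genes of the 10 that moved in opposite directions under the compounds, each with an adjusted p under 0.05 in both comparisons and between the compounds.

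The order of levels also differed. In vehicle-treated cells CCND1 stood first with a mean FPKM of 115, followed by CDK4, E2F1, CDK2, CDKN1A, CCND3, CDKN1B, RB1, CDK6 and CCNE2, with E2F1 and CDK2, and CCND3 and CDKN1B, overlapping in their libraries. Under rimonabant CDKN1A was second at 84.2, overlapping CCND1 at 86.3, and E2F1 overlapped CDK4. Under TXX-1-10 CDKN1A stood first at 123, above CCND1 at 55.1, which overlapped CDK4, and E2F1 had dropped to the seventh place. In that order CCND3 overlapped CDKN1B, CDKN1B overlapped CDK2, and RB1 overlapped CDK6.

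The rest of the G1/S network and the genes downstream were examined as lists in the 8-library fit, by counts and medians. Among all 9369 genes, TXX-1-10 raised 5.28% and lowered 7.39% against the vehicle, rimonabant raised 0.736% and lowered 0.758%, and between the compounds 2.1% were higher and 4.31% lower under TXX-1-10. The lists share a few genes. CCNE1, CCNA2 and CDK1 are in both the network and the E2F target list, and MYC is in both the network and the regulator list. This fit keeps TXX-1-10 replicate 3. In a fit of 7 libraries without it, chosen after the data were seen, TXX-1-10 against vehicle gave 31 E2F targets lower, 3 network genes higher and 13 lower, and 7 regulators higher and 2 lower. Of all 9369 genes, 496 were higher and 723 lower in that fit. Between the compounds 1 network gene, and not 2, was then higher, where 198 of all 9369 genes were higher and 413 lower.

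Of 53 further genes of the G1/S network, 45 were tested. TXX-1-10 raised 3, which were MXD1 (2.16), CCND2 (1.69) and E2F7 (1.05), and lowered 12, with a median log2 fold change of -0.29 against -0.04 for all genes. Lowest were E2F8 (-2.70), a repressor of the E2F family, CDKN2C (-2.42), which encodes the CDK4 and CDK6 inhibitor p18, CCNA2 (-2.29), the S phase cyclin, and CDKN3 (-2.23), a phosphatase that acts on CDKs. Rimonabant lowered CDKN3 (-1.20, adjusted p = 2.18e-07) and changed none of the other 44, with a median of -0.04 against 0.00. Between the compounds 2 were higher, MXD1 (1.34) and CCND2 (1.03), and 13 lower under TXX-1-10, with a median of -0.11 against -0.04. MXD1, an antagonist of MYC, and E2F7, another E2F repressor, are named because these counts are small, after their values were seen.

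Several of these genes act directly on the 10. SKP2, which targets p27 for degradation, was lower under TXX-1-10 (-2.06, edgeR adjusted p = 3.40e-10), as was CDC25A, the phosphatase that activates CDK2 (-2.14, adjusted p = 1.68e-10). RBL1, which encodes the RB1 relative p107, had -1.74 (adjusted p = 2.13e-10), and CKS1B, the cofactor of SKP2, had -0.94 (adjusted p = 8.59e-08), short of the fold threshold. None of these 4 passed under rimonabant, with values of -0.18, -0.06, 0.02 and -0.17.

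CCND2, the third D-type cyclin, went the other way from CCND1. From a mean FPKM of 2.83 in vehicle-treated cells it reached 4.48 with rimonabant and 9.14 with TXX-1-10. These were log2 fold changes of 1.69 for TXX-1-10 (edgeR adjusted p = 7.59e-10) and 0.66 for rimonabant (adjusted p = 6.51e-05). Its level stayed well below that of CCND1. CCNE1, the relative of CCNE2, had -0.76 under TXX-1-10 (adjusted p = 0.000229) and 0.34 under rimonabant (adjusted p = 0.0631). MYC, which drives cyclin D and E2F genes, had 0.39 under TXX-1-10 (adjusted p = 2.49e-05) and -0.24 under rimonabant (adjusted p = 0.00565), and CDKN2D, the gene of the inhibitor p19, had -0.63 (adjusted p = 9.13e-05) and 0.03 (adjusted p = 0.841).

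The other 8 network genes were not tested, because the list of vehicle replicate 2, a library of the 8-library fit, does not hold them. No separate fit was made for those that 7 libraries list. The following were chosen after their values were seen. CDKN2A, which encodes p16 and is deleted in this line, had 0 counts in all 7 libraries that list it, and CDKN2B had 0 in 4. CDKN1C, which encodes the third inhibitor of this family, p57, was read 51 and 54 times in vehicle libraries, 40 and 33 times in rimonabant libraries, and 151, 117 and 166 times in TXX-1-10 libraries. Its direction under TXX-1-10 was thus that of CDKN1A and not that of CDKN1B. E2F2, a relative of E2F1, fell from 273 and 265 reads in DMSO-treated cells to 25, 21 and 21 with TXX-1-10. Rimonabant libraries held 199 and 216 reads of E2F2, fewer than vehicle, whereas E2F1 was higher there. E2F5, a further relative, did not fall with TXX-1-10, at 277, 248 and 263 reads against 223 and 245 for vehicle. With rimonabant it was read 135 and 150 times.

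Of 40 E2F target genes for DNA synthesis, 39 were tested. TXX-1-10 lowered 31 of them and raised none, with a median log2 fold change of -1.40 against -0.04 for all genes, and all 39 were lower by adjusted p alone, against 40.6% of all genes. Lowest were RRM2 (-2.80), a subunit of ribonucleotide reductase, UHRF1 (-2.68), MCM10 (-2.50) and GINS2 (-2.38), the latter pair being replication factors. Rimonabant changed none, and by adjusted p alone 6 of 39 were higher and 14 lower, where 23.7% and 22.8% of all genes were. The median was -0.11 against 0.00, while E2F1 itself was higher. Between the compounds 33 were lower under TXX-1-10 and none higher, with a median of -1.32 against -0.04.

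**Figure D5:**
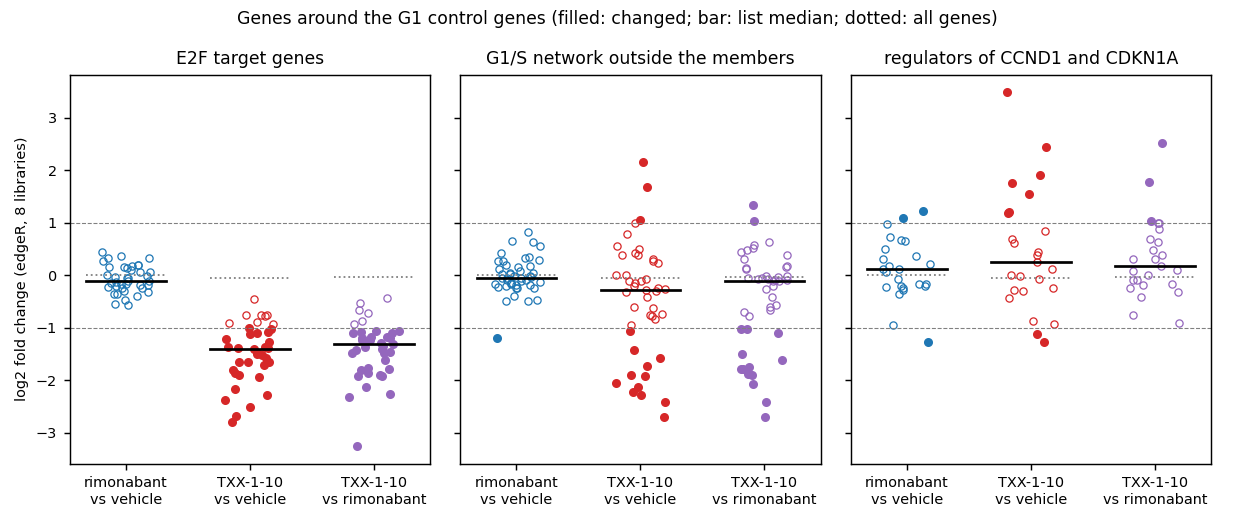
Log2 fold changes from edgeR (8 libraries) of the tested genes of 3 lists, for each of the 3 comparisons; filled points passed the call for changed, the black bar is the list median and the dotted line the median of all genes. E2F target genes lie around -0.11 under rimonabant and around -1.40 under TXX-1-10, while the regulators include a few genes far above the rest under TXX-1-10, led by DDIT3 at 3.49.

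Of 27 regulators that act on the transcription of CCND1 or CDKN1A, 25 were tested. TXX-1-10 raised 7 and lowered 2, TEAD1 (-1.26) and FOSL2 (-1.12), with a median of 0.25 against -0.04. Largest were the stress factor DDIT3 (3.49), KLF4 (2.44), which is known to activate CDKN1A, ATF3 (1.92) and the AP-1 subunit JUNB (1.76). Rimonabant raised 2, ATF3 (1.23) and EGR1 (1.09), and lowered HIF1A (-1.27), with a median of 0.11 against 0.00. Between the compounds DDIT3 (2.52), KLF4 (1.79) and JUNB (1.03) were higher under TXX-1-10, and no gene of this list was lower by the same call. TEAD1 and FOSL2 were also named after their values were seen.

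For each gene in the 9-library fit, the tested genes of the most similar pattern were taken as those with the smallest Euclidean distance over the 9 libraries of log2(FPKM + 1), centred on each gene's mean. For CDKN1A they were PPP1R15A (distance 0.501), FTL (0.506), the light chain of ferritin, and NDRG1 (0.542), where the distance of CDKN1A from a flat line was 2.53. For E2F1 they were ASF1B (0.241), a histone chaperone, PCNA (0.365), the replication clamp, and CDCA5 (0.373), from a flat line at 2.29. For CCND1 they were NOLC1 (0.124), ITGA6 (0.124) and CMIP (0.1498). RB1 lay closest to BRCA1 (0.119), NUDT21 (0.151) and TGOLN2 (0.157), and CDK2 to USP1 (0.0991), SIVA1 (0.124) and ACAT2 (0.133). Similar patterns over 9 libraries of 3 treatments are shared by many genes, and these distances have no test.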

How the data were processed

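Polyadenylated RNA was sequenced from 9 libraries, 3 per treatment, grouped by the treatment in the sample labels. The authors deposited for each gene an unnormalized count of reads and the FPKM value made from it. The submitters' processing notes name HISAT2 2.0.5 and featureCounts 1.5.0-p3, and the strand setting is not given in the sources used here. The total that turns each count into its FPKM was computed for each library and served as library size. Which reads it holds is not given either. Coordinates matched GENCODE 29 (GRCh38) for all 27615 genes.

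Genes whose FPKM averaged 1 or more entered edgeR 4.0.16 (R 4.3.3), in a fit of 9 libraries (4236 genes) and, for CCNE2 and the lists, of 8 libraries (9369 genes). The biological coefficients of variation were 0.0696 and 0.0604. In tests on simulated counts for TXX-1-10 against vehicle, 200 of 200 genes changed 3-fold were recovered with 0 false calls in either fit. The simulated counts had the same spread for all genes and no length trend. They check that the fit runs as intended and do not give error rates for these data. Alternatives included DESeq2 1.42.0, limma 3.58.1 on log2(FPKM + 1) and log2(FPKM + 0.1), TMM, other filters, a lowess correction for gene length (span 0.3) and each library left out. The library total without mitochondrial counts, and the lists without both libraries with a length trend, were added after seeing the data. Named genes were the 10 members, at most 4 changed genes per list and comparison, genes acting directly on a member, and the 3 nearest patterns. The members and lists were chosen with earlier results of these data known. A list of target genes and a regulator in the planned lists are not reported here. Replicate pairs differed by more than sampling noise, with a chi-square per degree of freedom of 2.29 to 42.2, so each library was counted once.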

Additional observations from a re-analysis of the deposited data

How the results depend on the processing

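The counts of changed genes and of genes with an adjusted p under 0.05 were within 1.5 times the values given under all 24 alternatives, except that 1 gene was changed between the compounds with a mean FPKM of at least 5, where CCNE2 leaves the fit. Values near 0 changed sign. CDK4 under TXX-1-10 was 0.0914 with TMM, 0.0929 with DESeq2, 0.11 with the length trend removed (0.11 with the block as well) and -0.0760 to 0.0427 with single libraries left out. CDK4 under rimonabant was 0.00594 with TMM, 0.00700 with DESeq2 and -0.0544 to 0.0257 with single libraries left out. CDK4 between the compounds was 0.0855 with TMM, 0.0859 with DESeq2, 0.13 with the length trend removed with or without the block, 0.0478 in the 8-library fit and -0.0706 to 0.0481 with single libraries left out. RB1 under rimonabant was 0.0131 with TMM, 0.0141 with DESeq2, 8.44e-06 with the higher FPKM filter, 0.0396 without both libraries with a length trend, 0.0161 with the trend removed, 0.0152 with the block as well, 3.25e-05 in fits of 2 treatments, 0.0395 in the 8-library fit and -0.0581 to 0.0395 with single libraries left out. CDKN1B between the compounds was 0.0570 with TMM, 0.0578 with DESeq2, 0.12 with the length trend removed with or without the block (adjusted p = 0.0337 without it), 0.0126 in the 8-library fit and -0.0648 to 0.0126 with single libraries left out. The causes were not tested. With the replicate block in the fit, 4, 1 and 2 genes were changed under TXX-1-10, under rimonabant and between the compounds, as without it. Deviations of same-numbered libraries correlated at -0.062, 0.014 and -0.074 between TXX-1-10 and vehicle. They correlated at -0.054, 0.043 and 0.043 between rimonabant and vehicle, and at -0.789, 0.828 and -0.614 between the compounds. The length trend lies in replicate 1 of rimonabant and replicate 3 of TXX-1-10 and is part of these deviations. The correlations therefore cannot decide whether libraries of the same number were paired. CCNE2 rests on few reads and 2 rimonabant libraries, and genes with fewer reads than the shorter lists hold were not tested. Intervals cover the spread between libraries.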
